A study of Homo sapiens with 6 samples.

Results

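The genes described here encode aminoacyl-tRNA synthetases, the enzymes that load each amino acid onto its transfer RNA. Members were the 36 listed synthetase symbols, and where a gene has several probe sets the brightest one on average stood for it. Of these 36 genes, 18 were measured under their names among 14779 named genes. They were 16 cytosolic enzymes and 2 genes, GARS1 and KARS1, whose products serve both the cytosol and mitochondria. None of the 16 listed mitochondrial enzymes, whose symbols end in ARS2, had a named probe set in the annotation used here (0 of 16), and neither did FARSA and FARSB, the subunits of the cytosolic phenylalanyl enzyme. The planned comparison of cytosolic with mitochondrial enzymes was therefore not made, and every result below is about the 18 measured genes. Each of these 18 had 1 named probe set.

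The arrays compared human LA1-55n neuroblastoma cells in which a hairpin against the glycine decarboxylase gene had been induced (shGLDC99, 3 arrays) with cells of the same line and an induced hairpin against GFP (shGFP, 3 arrays). GFP is a jellyfish protein, so its hairpin serves as a control with no human target. Both populations received doxycycline, which switches the hairpin on, at 0.5 µg/ml for 7 days. GLDC was targeted with 1 hairpin, and the labels do not say whether the cells were clones or pools. The replicates are described as independent samples without saying how they were separated, so the spread behind each p-value is that between these samples and may be partly technical.

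A synthetase first activates its amino acid with ATP and then transfers it to the matching transfer RNA, which carries it to the ribosome. Human cells encode most cytosolic and mitochondrial synthetases in separate nuclear genes. Several cytosolic enzymes sit together in the multi-tRNA synthetase complex, and the others work outside it. When an amino acid runs short or eIF2-alpha is phosphorylated for another reason, the transcription factor ATF4 is known to raise many cytosolic synthetase genes together with genes of amino acid synthesis and transport. Glycine is the substrate of GLDC and is charged by GARS1, and serine, the main source of glycine, is charged by SARS1.

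The targeted transcript was lower under its hairpin. GLDC had levels of 5.98, 5.65 and 5.93 on the log2 scale in shGLDC99 cells, against 7.85, 7.90 and 7.81 in shGFP cells, a log2 difference of -2.00. Of 15 measured neuroblastoma markers, 12 had a mean above the median gene level of 5.09, among them PHOX2A, HAND2, GATA3 and DDC, whereas DBH, HAND1 and STMN2 lay below it. Of 20 measured markers of fibroblasts, glia, leukocytes, endothelium and epithelium, 2 lay above that median, THY1 and CD68. Of the 15 neuroblastoma markers 2 rose and 5 fell past the threshold given below, where 3.72% of all genes rose and 4.8% fell. The 5 were ISL1 (-1.09), TBX20 (-0.86), TBX2 (-0.60), GATA2 (-0.56) and GATA3 (-0.48). CHGB (0.41) and KLF7 (0.35) were the 2 that rose. The neuroblastoma list used was wider than the planned one, which lacked TBX20, TBX2, KLF7 and STMN2. Of the 20 markers of other cells 1 rose, LUM, by 0.52 at levels below the median. The part of these markers in the results below was not tested. All 18 synthetases lay above that median. Correlations between arrays over all probe sets were 0.993 to 0.994 within groups and 0.988 to 0.990 between groups, so no array stood apart.

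Synthetase transcripts tended to be slightly higher in shGLDC99 cells, and 2 of them, WARS1 and SARS1, rose past the threshold. A gene is said to have risen or fallen where its adjusted p was under 0.05 in limma's test over all 14779 genes. Of the 18 synthetases, 2 rose and 0 fell, and 16 did not pass. At an unadjusted p under 0.05, 3 were higher (WARS1, SARS1 and IARS1) and 0 were lower, where 11.1% of all genes were higher and 13.2% lower. Of the genes at least as bright as the dimmest of the 18, 16.2% were higher at that p, a share near the 3 of 18 here. By the adjusted p, 3.72% of all genes rose and 4.8% fell. The difference was positive for 15 of the 18 synthetases and for 48.4% of all genes, and the median log2 difference was 0.13 for the synthetases and -0.01 for all genes. The sizes were small, from -0.10 for KARS1 to 0.60 for WARS1. A bulk value does not tell more RNA per cell from more cells that hold it.

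**Figure D1:**
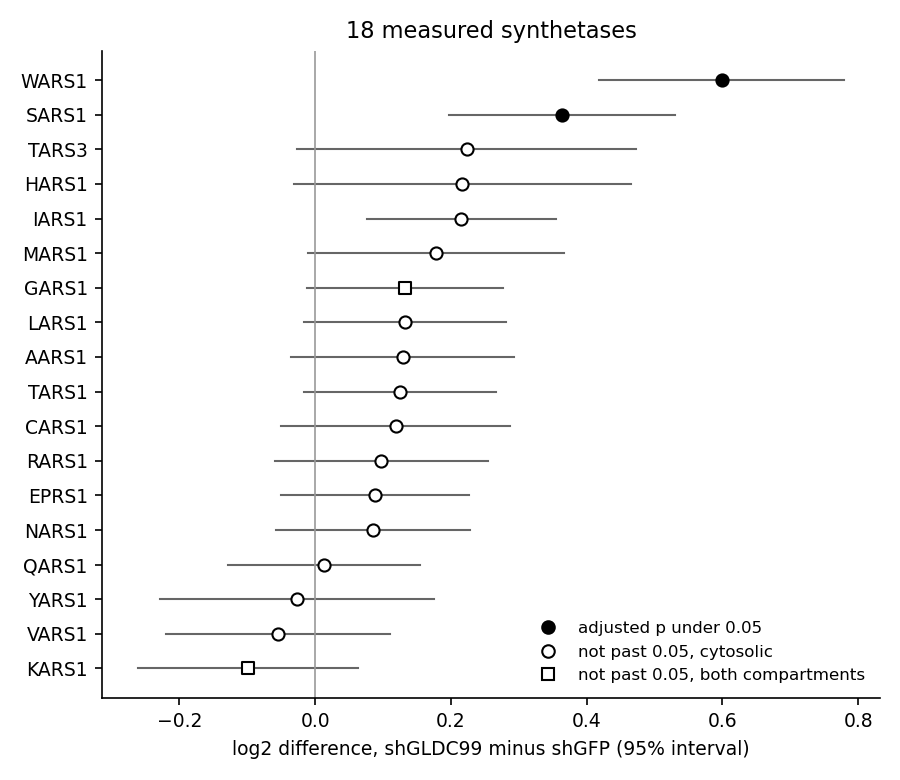
Log2 difference (shGLDC99 minus shGFP, x axis) of each of the 18 measured synthetases with its 95% interval from limma; filled symbols have an adjusted p under 0.05, open ones do not, and squares mark GARS1 and KARS1. WARS1 (0.60) and SARS1 (0.36) are filled, and the intervals of most other genes include 0 while their points lie to its right.

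WARS1, the cytosolic tryptophanyl-tRNA synthetase, had the largest difference of the 18. Its levels were 6.15, 6.21 and 6.15 on the log2 scale in shGLDC99 cells, against 5.62, 5.45 and 5.65 in shGFP cells. All shGLDC99 arrays were above all shGFP arrays, by more than the spread within either group. The means were 6.17 ± 0.0336 (SD, n = 3) in shGLDC99 cells and 5.57 ± 0.108 (SD, n = 3) in shGFP cells. The log2 difference of 0.60 ± 0.076 (SE) makes WARS1 1.51-fold higher (limma adjusted p = 0.00870). Leaving out any 1 of the 6 arrays gave adjusted p values of 0.0295 to 0.0384. With 3 arrays a group, an exact permutation test (two-sided) cannot go below p = 0.1, and that is what WARS1 gave.

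WARS1 is also known as a gene induced by interferon-gamma. Of 20 measured interferon response genes, 0 rose and 1 fell (3.72% and 4.8% of all genes), with a list median of -0.07. EIF2AK2, which rose and is described below among regulators upstream of ATF4, was not in this list. Apart from ISG15 (means of 5.60 in shGLDC99 and 5.35 in shGFP cells), the listed genes all averaged under 5.09, the median over genes. With probe sets this dim, the lack of risen genes and the list median say little about an interferon response. At an unadjusted p under 0.05, 1 interferon gene was higher, IRF9 (by 0.39, limma adjusted p = 0.0524), and 1 was lower, against 11.1% and 13.2% of all genes. The 1 that fell was IFIT1, at 1.72, 1.70 and 1.82 in shGLDC99 cells and 2.07, 2.09 and 2.10 in shGFP cells, levels far below the median gene level that are not shown to exceed background.

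SARS1, the cytosolic seryl-tRNA synthetase, rose as well. Its levels were 8.55, 8.63 and 8.71 in shGLDC99 cells, against 8.27, 8.21 and 8.31 in shGFP cells. The groups did not overlap. The log2 difference was 0.36 ± 0.070 (SE), a 1.29-fold rise (limma adjusted p = 0.0270), with means of 8.63 ± 0.0766 (SD, n = 3) in shGLDC99 cells and 8.27 ± 0.0506 (SD, n = 3) in shGFP cells. This call rested on all arrays. Without any 1 of the 6 (shGLDC99 a, b or c, or shGFP a, b or c) the adjusted p was 0.0533 to 0.0890, while the difference stayed between 0.33 and 0.40.

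**Figure D2:**
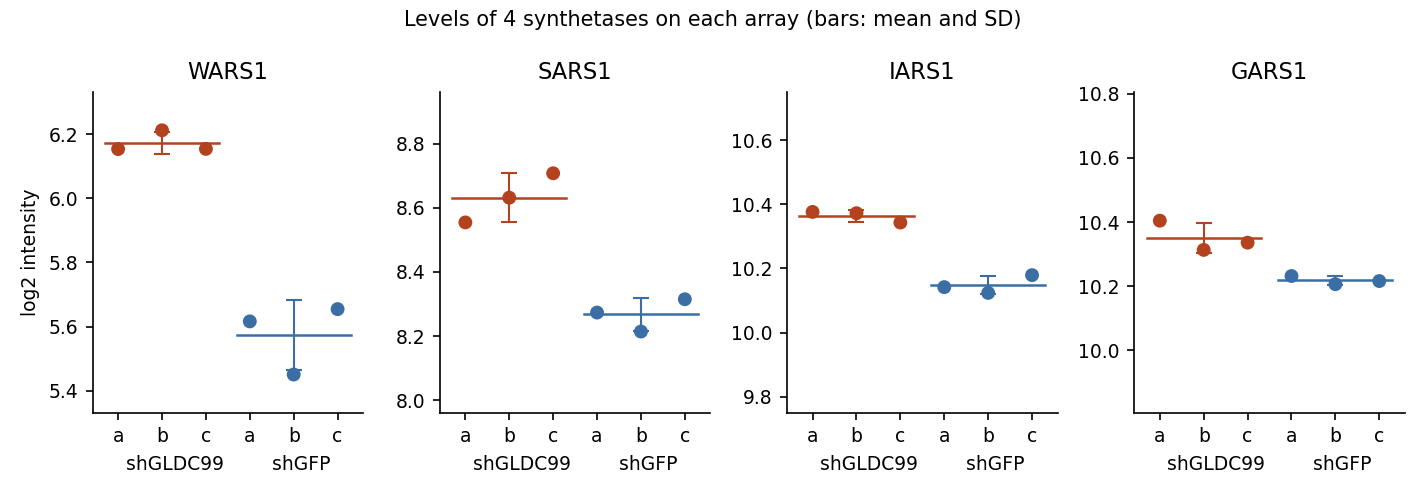
Log2 intensity (y axis, the same span of 1 in each panel) of WARS1, SARS1, IARS1 and GARS1 on arrays a, b and c of shGLDC99 and shGFP cells; lines are group means and bars SDs. In each of the 4 panels the 3 shGLDC99 points lie above the 3 shGFP points, with the widest gap for WARS1 (6.17 against 5.57 on average).

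The 2 genes that serve both compartments differed in opposite directions, and neither passed the test. GARS1, the glycyl-tRNA synthetase and so the enzyme that uses the amino acid GLDC breaks down, had levels of 10.40, 10.31 and 10.34 in shGLDC99 cells, against 10.23, 10.21 and 10.22 in shGFP cells. All shGLDC99 arrays were above all shGFP arrays. The log2 difference was 0.13, with a 95% interval of -0.01 to 0.28 (limma adjusted p = 0.240). KARS1, the lysyl-tRNA synthetase and a part of the multi-tRNA synthetase complex, had levels of 9.40, 9.29 and 9.29 in shGLDC99 cells, against 9.38, 9.41 and 9.49 in shGFP cells. Array a of shGLDC99 lay among the shGFP arrays, and the log2 difference was -0.10, with an interval of -0.26 to 0.06 (limma adjusted p = 0.440).

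Of the other 14 cytosolic genes, IARS1 came nearest to the threshold. IARS1, the isoleucyl enzyme of the complex, had levels of 10.38, 10.37 and 10.34 in shGLDC99 cells, against 10.14, 10.12 and 10.18 in shGFP cells. The groups did not overlap, and both were tight. The log2 difference was 0.22 ± 0.058 (SE), with an interval of 0.08 to 0.35 and a limma adjusted p of 0.0708. IARS1 passed in 0 of the 6 fits that left out an array (limma adjusted p 0.139 to 0.178) and in 3 of the 9 other alternatives. Those 3 were without the dimmest 40% of genes (adjusted p = 0.0197), with no moderation (0.0211) and when the prior variance followed the intensity (4.6e-04).

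HARS1, the histidyl enzyme, had levels of 5.95, 5.92 and 5.90 in shGLDC99 cells, against 5.77, 5.49 and 5.86 in shGFP cells. The shGFP arrays spread widely and array c came close to the shGLDC99 arrays, so the difference of 0.22 had an interval of -0.03 to 0.47. Without shGFP array b, which was the lowest, it was 0.11. TARS3, a second cytosolic threonyl enzyme, differed by 0.22 with overlapping groups (limma adjusted p = 0.253).

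MARS1, the methionyl enzyme of the complex, had levels of 8.61, 8.54 and 8.48 in shGLDC99 cells, against 8.26, 8.37 and 8.47 in shGFP cells. Array c of the groups differed by little, and the difference was 0.18 (limma adjusted p = 0.229). LARS1, the leucyl enzyme, which also takes part in leucine sensing by mTORC1, had levels of 9.76, 9.73 and 9.82 in shGLDC99 cells, against 9.68, 9.62 and 9.61 in shGFP cells. Its groups did not overlap, and the difference was 0.13 (limma adjusted p = 0.256).

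The remaining cytosolic genes differed by 0.13 or less. AARS1 (alanyl, 0.13), TARS1 (threonyl, 0.12), RARS1 (arginyl, 0.10), EPRS1 (glutamyl-prolyl, 0.09) and NARS1 (asparaginyl, 0.09) had all shGLDC99 arrays above all shGFP arrays. CARS1 (cysteinyl, 0.12) overlapped between groups. Without shGLDC99 array c, RARS1 differed by 0.06 and CARS1 by 0.08. QARS1 (glutaminyl, 0.01), YARS1 (tyrosyl, -0.03) and VARS1 (valyl, -0.05) were near 0 and also overlapped. Their 95% intervals were -0.13 to 0.15 for QARS1, -0.23 to 0.17 for YARS1 and -0.22 to 0.11 for VARS1, so a change of the size seen for WARS1 lay outside each of them. VARS1 lay between -0.0038 and -0.088 when an array was left out, the value nearest 0 being that without shGLDC99 array c.

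Counted over all 18, the groups did not overlap for 12 synthetases, all of them higher in shGLDC99 cells, and overlapped for the other 6. Over all genes, 14.5% had all shGLDC99 arrays above all shGFP arrays and 16.3% had them all below. Among the 5736 genes with a mean at least that of HARS1, the dimmest of the 18, 23.3% had all shGLDC99 arrays above and 6.24% rose, and 47.4% had a positive difference.

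The median synthetase was higher on each shGLDC99 array than on any shGFP array. Relative to each gene's shGFP mean, the median of the 18 synthetases was 0.13, 0.10 and 0.13 on shGLDC99 arrays a, b and c, and 0.01, -0.02 and 0.02 on shGFP arrays a, b and c. The number of synthetases above their shGFP mean was 16, 15 and 16 on the shGLDC99 arrays and 11, 5 and 12 on the shGFP arrays. Because each gene is centred on its shGFP mean, the shGFP medians lie near 0 by construction. These medians and counts restate the differences above and add no independent evidence. The median of all genes on the same scale lay between -0.02 and 0.02 on all 6 arrays. Without WARS1 and SARS1, the other 16 genes had a median log2 difference of 0.12 and 13 of them were positive.

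**Figure D3:**
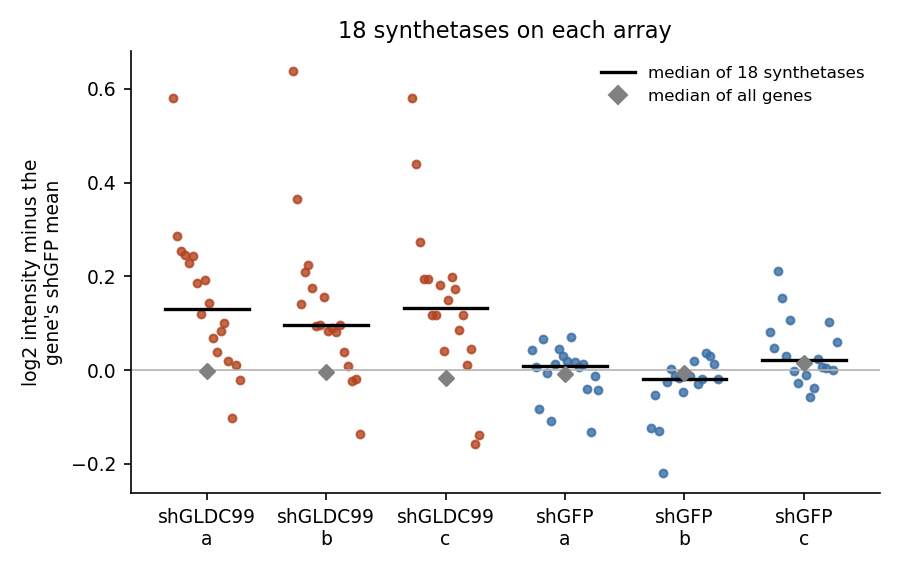
Log2 intensity minus the gene's shGFP mean (y axis) for the 18 synthetases on each array; black lines are medians of the 18 and grey diamonds medians of all genes. The lines lie at 0.10 to 0.13 on the shGLDC99 arrays and within 0.02 of 0 on the shGFP arrays, whose own mean is subtracted. The diamonds stay within 0.02 of 0 on all arrays.

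**Figure D4:**
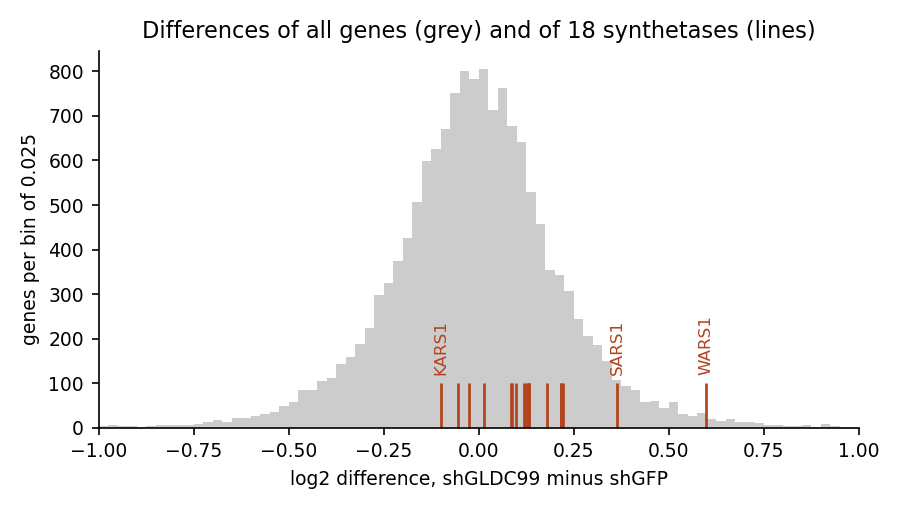
Number of genes per bin (y axis) by log2 difference (x axis, cut at -1 and 1, with 56 genes outside) for all 14779 genes, with red lines at the 18 synthetases. Most lines stand to the right of 0 but inside the bulk of the grey distribution, with SARS1 at 0.36 and WARS1 at 0.60 in its right flank.

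Subsets of the synthetases by assembly and by chemistry had like medians. The 7 genes of the multi-tRNA synthetase complex (EPRS1, IARS1, KARS1, LARS1, MARS1, QARS1 and RARS1) had a median log2 difference of 0.10, and 0 of them rose or fell. The 11 outside it had a median of 0.13, and 2 of them rose, where 3.72% of all genes did. AIMP1, a scaffold protein of the complex, differed by 0.08 (limma adjusted p = 0.681). Synthetases fall into classes I and II by the fold of their catalytic domain. The 9 genes of class I had a median of 0.12 and the 8 of class II a median of 0.13, leaving out EPRS1, which joins one of each. The difference between these subsets was not tested.

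A further grouping set apart the 12 synthetases known from general knowledge as ATF4 targets from the 6 others. The 12 were AARS1, CARS1, EPRS1, GARS1, IARS1, LARS1, MARS1, NARS1, SARS1, TARS1, WARS1 and YARS1. Their median log2 difference was 0.13, 11 of 12 were positive, 10 did not overlap between groups and 2 rose. The other 6 (HARS1, KARS1, QARS1, RARS1, TARS3 and VARS1) had a median of 0.06, 4 were positive, 2 did not overlap and 0 rose. Over all genes, 48.4% were positive, 14.5% had all shGLDC99 arrays above all shGFP arrays and 3.72% rose. Of the genes at least as bright as the dimmest synthetase, 23.3% had all shGLDC99 arrays above. Whether the 2 subsets differ was not tested.

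ATF4 binds a composite site whose core can be written TGATGNAA, where N is any base. As a description, this 8-letter core was looked for on both strands of RefSeq promoter windows (GRCh38.p14, 250 bases before to 50 after each annotated start). Of the 18 genes, 14 had a window and 7 of these held the core. All 7 were among the 10 known ATF4 targets with a window, and 0 of the 4 others held it. Targets may be known partly through such sites, so this split is no independent evidence. The core was in 3.2% of 10715 measured genes with a window and in 4.46% of all 27305 genes with one. It was in 10 of 28 listed ATF4 targets that are not synthetases (35.7%). Of the synthetases not measured, 16 had a window and 1 of these held the core (6.25%). The matches follow in 30 bases each, 5′ to 3′ on the strand of the gene, with the core in capitals, to show how alike they are. The opposite-strand form reads TTNCATCA.
IARS1 (chr9:92293692-92293721, minus strand): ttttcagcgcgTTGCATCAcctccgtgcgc
MARS1 (chr12:57488053-57488082, plus strand): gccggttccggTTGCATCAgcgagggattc
GARS1 (chr7:30594834-30594863, plus strand): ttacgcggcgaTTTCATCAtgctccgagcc
AARS1 (chr16:70289675-70289704, minus strand): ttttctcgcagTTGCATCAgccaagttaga
TARS1 (chr5:33440956-33440985, plus strand): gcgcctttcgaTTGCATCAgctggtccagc
CARS1 (chr11:3057407-3057436, minus strand): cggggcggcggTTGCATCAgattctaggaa
NARS1 (chr18:57621804-57621833, minus strand): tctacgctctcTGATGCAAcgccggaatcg

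Read in its forward form, the core was TGATGAAA in GARS1 and TGATGCAA in the other 6. The core began 187 bases before the annotated start in AARS1, 33 in GARS1, 13 in IARS1, 4 in MARS1 and 2 in CARS1. It began at base 3 of the transcript in TARS1 and at base 15 in NARS1. GARS1, CARS1 and TARS1 each have a second annotated window without it.

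The 2 genes that rose had no match. WARS1 and SARS1 each have 2 windows, and 0 of them held the core. The 150 bases before the first annotated start of each are shown for comparison with the sites above.
WARS1 (chr14:100376328-100376477, minus strand): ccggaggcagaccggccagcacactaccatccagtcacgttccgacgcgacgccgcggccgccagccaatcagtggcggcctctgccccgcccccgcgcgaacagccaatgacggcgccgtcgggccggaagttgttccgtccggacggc
SARS1 (chr1:109213743-109213892, plus strand): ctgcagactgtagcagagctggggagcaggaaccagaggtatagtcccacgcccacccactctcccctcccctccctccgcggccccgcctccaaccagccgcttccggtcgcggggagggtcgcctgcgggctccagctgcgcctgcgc

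The 7 genes with the core had log2 differences of 0.09 to 0.22 and a median of 0.13, with 0 past the threshold. The 7 without it had a median of 0.10 and spanned -0.10 (KARS1) to 0.60 (WARS1). A match is a run of letters and not a shown binding site, and its absence from these windows says nothing of sites elsewhere. HARS1 has its window in common with that of HARS2, the mitochondrial gene on the opposite strand, over 184 bases.

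Among ATF4 targets that are not synthetases, 20 were measured, of which 4 rose and 0 fell (3.72% and 4.8% of all genes), with a median of 0.15. The difference was positive for 18 of them, and 9 had all shGLDC99 arrays above all shGFP arrays (48.4% and 14.5% of all genes). The 2 others, PHGDH (-0.24, limma adjusted p = 0.0581) and CBS (-0.12, 0.365), had all shGLDC99 arrays below, as 16.3% of all genes did. This list overlaps one already examined in these data, so it is no independent evidence of a direction. DDIT4, an inhibitor of mTORC1, had 7.01, 6.88 and 7.05 in shGLDC99 cells, against 6.25, 6.01 and 6.23 in shGFP cells. ASNS, which makes asparagine, had 8.90, 8.94 and 8.89 in shGLDC99 cells, against 8.53, 8.55 and 8.50 in shGFP cells. NARS1, which charges asparagine, did not pass the test. TRIB3, a pseudokinase induced by ATF4, and VLDLR, a lipoprotein receptor, were the other 2 that rose, by 0.57 and 0.46.

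Regulators upstream of ATF4 gave a mixed picture. The ATF4 transcript itself had 8.90, 8.86 and 8.84 in shGLDC99 cells, against 8.77, 8.81 and 8.82 in shGFP cells, a log2 difference of 0.07 (limma adjusted p = 0.562). ATF4 is controlled largely by translation, which arrays do not measure. Of 9 measured genes in this list, ATF4 itself included, 1 rose and 1 fell (3.72% and 4.8% of all genes). EIF2AK2, the eIF2-alpha kinase PKR that responds to double-stranded RNA, had 9.44, 9.41 and 9.56 in shGLDC99 cells, against 9.12, 9.15 and 9.08 in shGFP cells, and rose by 0.36 (limma adjusted p = 0.0274). EIF2AK3, the kinase PERK of the endoplasmic reticulum, had 7.58, 7.56 and 7.59 in shGLDC99 cells, against 8.07, 7.87 and 7.85 in shGFP cells, and fell by 0.35 (limma adjusted p = 0.0431). EIF2AK4, the kinase GCN2 that senses uncharged transfer RNA, differed by 0.17 (limma adjusted p = 0.131). EIF2AK1, a further eIF2-alpha kinase, differed by -0.17 (limma adjusted p = 0.136).

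Counts for the steps before and after charging are read against the 3.72% of all genes that rose and the 4.8% that fell. Of 19 measured genes of transfer RNA processing and modification 1 rose, RPP14, a protein linked to RNase P, by 0.32 (limma adjusted p = 0.0483), and the list median was -0.05. Of 10 genes of cytosolic elongation and termination 1 fell, EEF2K, the kinase that inhibits elongation factor eEF2, and 0 rose. EEF2K had 6.72, 6.55 and 6.50 in shGLDC99 cells, against 7.07, 7.11 and 7.06 in shGFP cells, a difference of -0.49 (limma adjusted p = 0.0149). EEF2 itself differed by -0.01.

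Besides GARS1 and KARS1, the mitochondrial side was represented by factors of translation. Of 15 measured genes of mitochondrial translation 0 changed in limma's test, with a median of 0.07; at an unadjusted p under 0.05, 3 were higher and 2 were lower, against 11.1% and 13.2% of all genes. MTIF2, the initiation factor, differed by 0.28 (limma adjusted p = 0.0525) and MRRF, the ribosome recycling factor, by 0.38 (0.0620). QRSL1, a subunit of the amidotransferase that makes mitochondrial glutaminyl-tRNA, differed by -0.27 (0.0741). Of 5 genes of charging quality control and stalled ribosome handling 0 changed, while 1 was higher (NEMF) and 1 was lower (ZNF598) at an unadjusted p under 0.05 (11.1% and 13.2% of all genes), and the median was 0.11.

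**Figure D5:**
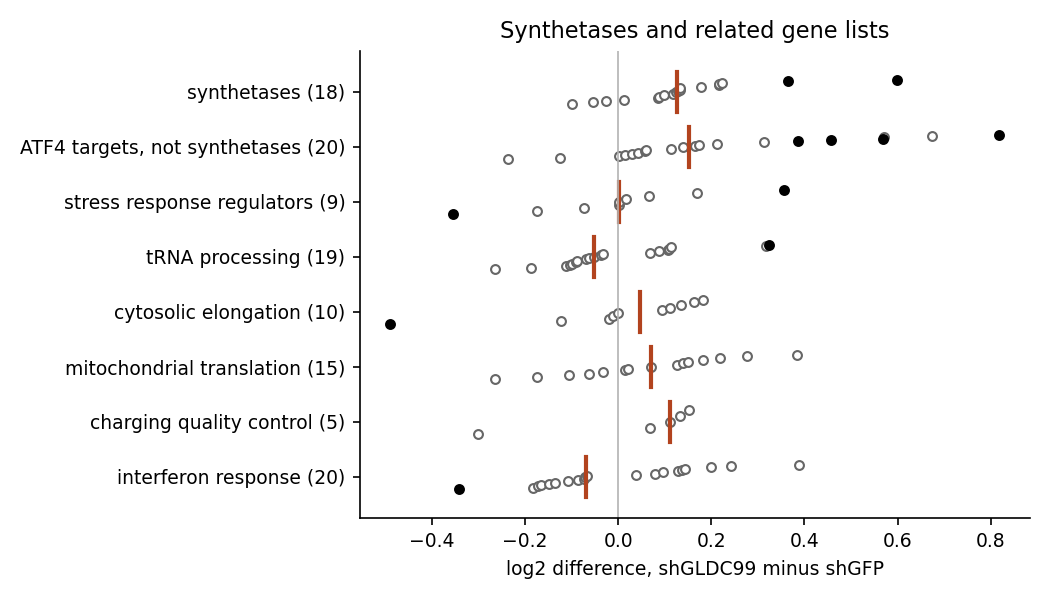
Log2 difference (shGLDC99 minus shGFP, x axis) of each measured gene in the synthetase list and in 7 related lists, with the number of genes in brackets; filled points have an adjusted p under 0.05 and red bars are list medians. The medians are 0.13 for the synthetases and 0.15 for other ATF4 targets, and between -0.07 and 0.11 for the other 6 lists.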

How the data were processed

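The 6 1-colour arrays (Affymetrix Human Gene 2.0 ST) were grouped by sample title. The deposited values, one per probe set and array, were read as log2 intensity. The base is inferred: values reach 13.28, whereas a natural log of a 16-bit scanner reading ends at 11.09. Partek is named, per the submitters' processing notes, while its version, the background correction and the normalization were not given in the sources used here. Since array medians were 4.28 to 4.33, no further normalization was applied. Of 31135 probe sets, the platform annotation names 1 gene for 15098, several for 0 and none for 16037, which leaves 14779 genes, 256 of them with several probe sets. The number of arrays limits the precision.

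Each log2 difference (shGLDC99 minus shGFP) was tested by limma 3.58.1 under R 4.3.3, with lmFit and eBayes and no covariates, and Benjamini-Hochberg adjustment over all 14779 genes; SE and 95% intervals are the moderated ones. The model was tested on simulated data. Other software was the data.table package (version 1.17.8), Python 3.11.15, pandas 2.3.3, numpy 2.4.6 and matplotlib 3.10.9. The alternatives were quantile normalization, median centring, leaving out the dimmest 40% of genes, averaged probe sets, the replicate letter as a block, an intensity trend, array weights, no moderation, all probe sets, and leaving out each array.

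The members and lists were chosen with earlier results of these data known. Every measured synthetase is named. Values on all arrays are given for those past an adjusted p of 0.05, for GARS1 and KARS1, and for the 4 others with the largest difference among those whose groups did not overlap. The rule also covered SARS2 and WARS2, which had no named probe set in the annotation used here. From each related list the rule named at most 4 genes, by adjusted p; others, such as ATF4, EEF2 and the marker genes, were named after their values were seen. Pairs of cytosolic and mitochondrial enzymes were not compared, for lack of named mitochondrial probe sets.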

Additional observations from a re-analysis of the deposited data

How the results depend on the processing

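Over the 15 alternatives, 253 of 270 values of single synthetases kept their direction and their side of the threshold. WARS1 was called in all 6 fits that left out an array and in 8 of the other 9, and SARS1 in 0 of the 6 and 8 of the other 9. Leaving out 1 array gave 1 synthetase risen in each case, 1 cytosolic one, and 461 to 546 changed genes in all, against 1259; with fewer samples, fewer genes pass. The medians of all measured and of cytosolic synthetases stayed between 0.11 and 0.14 in these fits and in all alternatives. Leaving out dim genes, averaging or using all probe sets, the block, the intensity trend and no moderation could not move a synthetase's difference. With those settings only its side of the threshold could change. QARS1 lay between -0.0071 and 0.031 and YARS1 between -0.093 and 0.025 when an array was left out, so neither has a settled sign. With a prior variance that followed the intensity 2438 genes changed and 6 synthetases rose, 5 of them cytosolic (IARS1, LARS1, SARS1, TARS1 and WARS1) and the sixth GARS1; this fit gives bright genes a smaller prior variance. Without the dimmest 40% of genes 2221 genes changed and 3 synthetases rose. With the replicate block 229 genes changed and 0 synthetases rose, cytosolic ones included (WARS1 adjusted p = 0.0535, SARS1 0.0822). The letters do not pair the arrays in the labels, and deviations of arrays with the same letter correlated at -0.012, 0.018 and -0.001; not every array correlated best with its own letter. In each of these fits 0 synthetases fell. The median SE was 0.069 over the synthetases and 0.095 over all genes. Results for mitochondrial synthetases could not be computed.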
